A study of Mus musculus with 6 samples.

Results

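The 9 genes described here, Ifit1, Ifit2, Ifit3, Isg15, Irf7, Stat2, Bst2, Oasl2 and Ifi27, are targets of type I interferon. They were taken by symbol from a table of 55492 genes, and all 9 were among the 15245 genes expressed highly enough to be tested. RNA was measured in cells of mice lacking Npc1, the late endosomal and lysosomal protein that exports cholesterol, and in cells of WT mice. The comparison asks whether these genes differed in oligodendrocyte lineage cells without Npc1, since NPC1 has been linked to limiting signalling through STING, a sensor pathway that switches on interferon.

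Whole brains of mice aged 16 days were dissociated, and cells carrying the O4 antigen, a surface lipid of late oligodendrocyte progenitors and immature oligodendrocytes, were pulled out with magnetic microbeads and frozen at once. There were 3 WT and 3 Npc1-/- mice, with 1 poly(A) library each. The mutants carried the null Npc1nih allele on both copies, in every cell type of the body from conception. All mice came from crosses of BALB/cJ with C57BL6/J carriers. The labels give the treatment of all 6 samples as none. Levels are given as scaled TPM, the deposited TPM (transcript abundance per length, scaled to the same total in every library) divided by a size factor per library, and a log2 fold change is the difference of log2(scaled TPM + 0.5), Npc1-/- minus WT, with its standard error (SE) from a limma fit across all genes tested. A gene was called when its Benjamini-Hochberg adjusted p was below 0.05 and its log2 fold change was at least 0.1 in size.

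Npc1 itself was at 53.3, 50.4 and 45.5 TPM in the WT libraries and at 4.10, 4.42 and 3.16 TPM in the Npc1-/- libraries, as the labels say. The steps between low FPKM values gave a depth of at least 40500000 fragments in every library. Of the 12 oligodendrocyte lineage markers, all 12 were detected, and Mbp, a main protein of myelin, made up 18.8 to 26.1% of all TPM in the 6 libraries. Npc1-/- replicate 3 stood apart in the sex-linked genes, with Xist at 15.6 TPM and Ddx3y at 0, whereas Xist was at most 0.01 and Ddx3y at least 14.4 TPM in the other 5. Results are therefore also given without that library where they rest on it.

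Type I interferons bind a receptor of IFNAR1 and IFNAR2, whose kinases phosphorylate STAT2. With IRF9 it forms part of a factor that binds the interferon-stimulated response element (ISRE) in front of target genes. The products include IRF7, which raises interferon transcription further, the IFIT proteins, which bind foreign or viral RNA, and ISG15, a ubiquitin-like protein that is attached to other proteins. In the brain microglia, astrocytes and endothelial cells answer interferon, and oligodendrocytes also carry the receptor.

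To show what the 9 genes have in front of them, promoter windows of 300 bases (250 before and 50 after the start) were read from the RefSeq table for GRCm38.p6, which is C57BL/6J sequence. A window was found for 8 of the 9 genes, all but Ifi27. The ISRE was searched as GAAA, any 2 bases and GAAA again, on both strands (TTTC, 2 bases and TTTC in reverse). It was in 3.44% of all 32851 windows, and 3.99% of all 27025 genes held it in any window. It was found in 5 of the 8 genes, Ifit1, Ifit3, Isg15, Stat2 and Bst2. It was not found in these letters in Ifit2 (in either of its 2 windows), Irf7 or Oasl2. The site of STAT dimers (GAS), searched as TTCNNNGAA, which reads the same on both strands, was in 8.30% of all windows and 9.55% of all genes. Among the 8 genes it was in Ifit2 and Bst2. In Bst2 it overlapped an ISRE match. The 250 bases before the start are shown for genes with 2 or more ISRE matches, since these include the gene with the largest difference between genotypes and genes whose groups overlapped. ISRE matches are in capitals.
Ifit3 (chr19:34583279-34583528, plus strand): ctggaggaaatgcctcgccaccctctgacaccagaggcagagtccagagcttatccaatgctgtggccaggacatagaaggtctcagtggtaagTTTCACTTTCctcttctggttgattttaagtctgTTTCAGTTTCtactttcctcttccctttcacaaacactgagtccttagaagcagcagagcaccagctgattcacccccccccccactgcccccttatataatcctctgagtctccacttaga
Ifit3b (chr19:34607707-34607956, plus strand): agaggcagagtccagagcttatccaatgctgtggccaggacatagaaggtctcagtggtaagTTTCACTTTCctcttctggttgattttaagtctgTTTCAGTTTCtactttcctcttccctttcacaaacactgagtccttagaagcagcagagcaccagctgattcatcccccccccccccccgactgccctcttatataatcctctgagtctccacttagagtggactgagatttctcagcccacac
Ifit1 (chr19:34640639-34640888, plus strand): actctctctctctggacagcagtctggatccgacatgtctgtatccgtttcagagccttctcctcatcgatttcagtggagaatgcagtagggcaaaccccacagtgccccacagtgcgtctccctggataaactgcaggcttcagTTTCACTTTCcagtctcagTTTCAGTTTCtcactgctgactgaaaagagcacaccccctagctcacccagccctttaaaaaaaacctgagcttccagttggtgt
Isg15 (chr4:156200819-156201068, minus strand): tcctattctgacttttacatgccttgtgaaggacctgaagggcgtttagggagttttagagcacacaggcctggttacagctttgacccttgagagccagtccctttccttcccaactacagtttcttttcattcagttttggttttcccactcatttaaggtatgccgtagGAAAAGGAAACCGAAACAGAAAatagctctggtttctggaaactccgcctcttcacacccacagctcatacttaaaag
Bst2 (chr8:71537473-71537722, minus strand): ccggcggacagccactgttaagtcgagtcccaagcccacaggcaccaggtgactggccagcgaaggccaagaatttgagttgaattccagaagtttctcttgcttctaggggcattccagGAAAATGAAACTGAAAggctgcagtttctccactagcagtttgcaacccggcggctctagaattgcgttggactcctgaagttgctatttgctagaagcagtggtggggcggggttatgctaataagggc

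The matches began at -156 and -122 from the start in Ifit3, at -188 and -154 in its close copy Ifit3b, and at -104 and -85 in Ifit1. Isg15 held 3 matches that overlap one another, beginning at -78, -72 and -66, and Bst2 held a pair at -130 and -124. The upstream stretches of Ifit3 and Ifit3b shared an identical run of 169 bases.

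In the comparison of genotypes, none of the 9 genes was called, beside 0.813% of all genes tested (124 of 15245), of which 0.4% were higher and 0.413% lower in Npc1-/-. The IFIT genes had the largest log2 fold changes, with Ifit3 at 2.08, Ifit2 at 0.93 and Ifit1 at 0.76, and all 3 had an unadjusted p below 0.05, beside 10.6% of all genes that did so with higher levels in Npc1-/- and 22.2% in either direction. In Ifit3 and Ifit2 every Npc1-/- library lay above every WT library, which was so for 13.3% of all genes tested (27.5% lay apart in either direction), and in the other 7 genes the groups overlapped. Their median log2 fold change was 0.12, against 0.01 over all genes tested, and 7 of the 9 were above 0, beside 51.0% of all genes. With 3 mice against 3, the smallest p that an exact permutation test (two-sided, 20 arrangements) can give is 0.1.

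**Figure D1:**
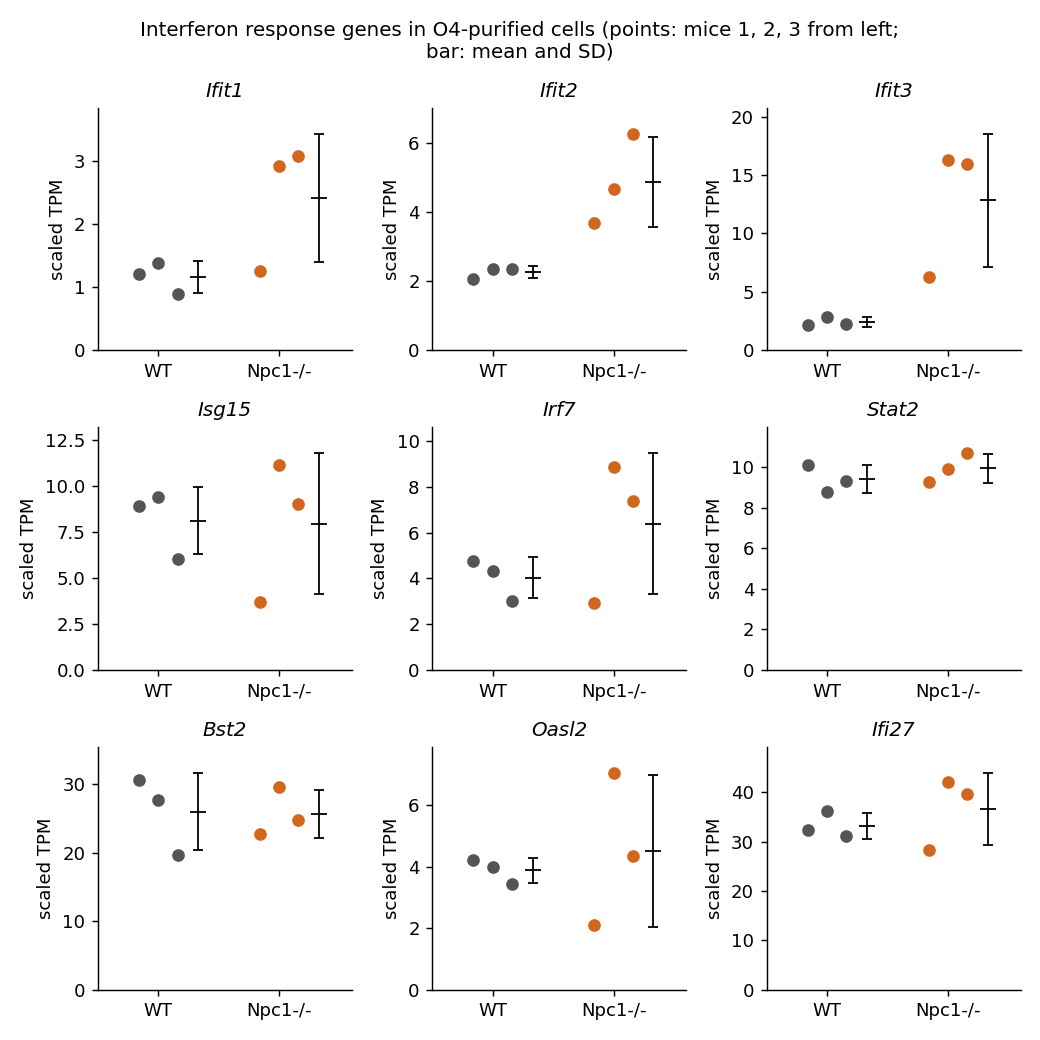
Scaled TPM (linear axes from 0) of each of the 9 genes in the 3 WT and the 3 Npc1-/- libraries, with mice 1, 2 and 3 from left to right and the mean and SD beside them. The points of Ifit3 and Ifit2 do not overlap between genotypes, and the leftmost Npc1-/- point is the lowest of its group in all 9 panels on this scale (5 of 9 with TPM as deposited).

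Ifit3 (ENSMUSG00000074896, chr19:34583531-34588731 on GRCm38), a gene of the IFIT family, was at 2.17, 2.88 and 2.22 scaled TPM in WT and at 6.25, 16.3 and 16.0 in Npc1-/-. The lowest mutant mouse was still above the highest WT mouse, and the other 2 mutants were higher again. The means were 2.43 ± 0.397 and 12.8 ± 5.71 (SD, n = 3), a 5.29-fold ratio. The log2 fold change was 2.08 (SE 0.35, 95% interval 1.27 to 2.90), at the 99.9th percentile of all genes tested, with a limma adjusted p of 0.0503 and an exact permutation p of 0.1. The lowest library held about 107 and the highest about 708 fragments of this gene.

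Ifit3 shares sequence with its neighbour Ifit3b, a near copy, so that reads can be split between them. Of the 1595 windows of 1 read length in the Ifit3 transcript, 293 (18.4%) also occur in Ifit3b. Ifit3b was at 0.973, 1.15 and 1.11 scaled TPM in WT and at 3.03, 8.34 and 8.55 in Npc1-/-, a log2 fold change of 2.06 (SE 0.35, limma adjusted p 0.0522). The sum of both genes in scaled TPM was 3.14, 4.03 and 3.33 in WT and 9.28, 24.6 and 24.5 in Npc1-/-. The sum separated the genotypes as well, with a 5.56-fold ratio of means (exact permutation p = 0.1). The TPM ratio of Ifit3 to Ifit3b overlapped between genotypes, at 2.23, 2.51 and 2.01 in WT and 2.06, 1.95 and 1.87 in Npc1-/- (exact permutation p = 0.2).

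Ifit2 (ENSMUSG00000045932, chr19:34550694-34576419), an RNA-binding member of the same family, was at 2.07, 2.35 and 2.36 scaled TPM in WT and at 3.68, 4.66 and 6.26 in Npc1-/-. The WT mice lay close together and all 3 mutants were above them. The log2 fold change was 0.93 (SE 0.19, 95% interval 0.49 to 1.37) with a limma adjusted p of 0.0584, and the ratio of means was 2.15.

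Ifit1 (ENSMUSG00000034459, chr19:34640871-34650009), which binds viral RNA whose cap lacks methylation, was the lowest of the 9 genes, at 1.20, 1.38 and 0.886 scaled TPM in WT and 1.25, 2.92 and 3.08 in Npc1-/-. Npc1-/- replicate 1 lay among the WT mice, and the other 2 mutants lay above them. The log2 fold change was 0.76 (SE 0.30, 95% interval 0.06 to 1.45) with a limma adjusted p of 0.192 and an exact permutation p of 0.2. About 69 to 203 fragments per library stood behind these values.

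The 3 genes sit on chromosome 19 in a span of 99316 bases (34550694 to 34650009) together with Ifit1bl1, Ifit3b, Ifit1bl2 and the pseudogene Cnn2-ps. Ifit1bl1 and Ifit1bl2 were at most 0.164 scaled TPM in any library and were not tested, and Cnn2-ps was listed at 0. Lipa, the lysosomal acid lipase gene just before the span, was at 13.4 to 17.0 scaled TPM in WT and 13.8 to 16.1 in Npc1-/-, with a log2 fold change of 0.03 (limma adjusted p 0.924). On the other side Slc16a12, a transporter gene, had a log2 fold change of -0.36 (limma adjusted p 0.341). These neighbours were named after their values were seen.

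Among the genes of signalling, Stat2 (ENSMUSG00000040033, chr10:128270559-128292849) encodes the STAT that is particular to the type I and III interferon receptors. It was at 10.1, 8.78 and 9.32 scaled TPM in WT and at 9.25, 9.90 and 10.7 in Npc1-/-. The groups overlapped with little spread, so that its log2 fold change of 0.08 had the narrowest interval of the 9 genes, from -0.16 to 0.32 (limma adjusted p 0.720).

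Irf7 (ENSMUSG00000025498, chr7:141262706-141266481), the factor that amplifies interferon transcription, was at 4.75, 4.32 and 3.02 scaled TPM in WT and at 2.95, 8.87 and 7.38 in Npc1-/-. One mutant mouse was below all WT mice and the other 2 were above them. The log2 fold change was 0.50 (SE 0.37, 95% interval -0.36 to 1.37) with a limma adjusted p of 0.480. Its end overlaps Phrf1 on the other strand, which was at 13.9 to 17.7 scaled TPM, and the sources used here do not say whether strand was used in counting.

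Isg15 (ENSMUSG00000035692, chr4:156199424-156200818) was at 8.92, 9.39 and 6.02 scaled TPM in WT and at 3.69, 11.1 and 9.01 in Npc1-/-. The mutants spanned the WT range on both sides, and the log2 fold change of -0.13 (SE 0.38) had an interval from -1.01 to 0.75 (limma adjusted p 0.879). Oasl2 (ENSMUSG00000029561, chr5:114896936-114912234), a relative of the 2-5 oligoadenylate synthetases, was at 4.22, 4.0 and 3.43 in WT and at 2.11, 7.05 and 4.36 in Npc1-/-. It too had a mutant mouse below and others above all WT mice, with a log2 fold change of 0.07 (SE 0.35, 95% interval -0.76 to 0.89, limma adjusted p 0.938). For both genes the interval is wide enough to hold a rise or a fall of over 1.5 times.

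Bst2 (ENSMUSG00000046718, chr8:71534255-71537456), or tetherin, which holds budding viruses at the cell surface, was at 30.6, 27.7 and 19.7 scaled TPM in WT and at 22.8, 29.5 and 24.7 in Npc1-/-. Ifi27 (ENSMUSG00000064215, chr12:103434211-103440239), whose product lies at the nuclear and mitochondrial membranes, was at 32.4, 36.2 and 31.1 in WT and at 28.3, 42.0 and 39.6 in Npc1-/-. These were the most abundant of the 9 genes, and the groups overlapped in both. The log2 fold change was -0.0027 for Bst2 (95% interval -0.42 to 0.42, limma adjusted p 0.996) and 0.12 for Ifi27 (95% interval -0.25 to 0.49, limma adjusted p 0.709).

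**Figure D2:**
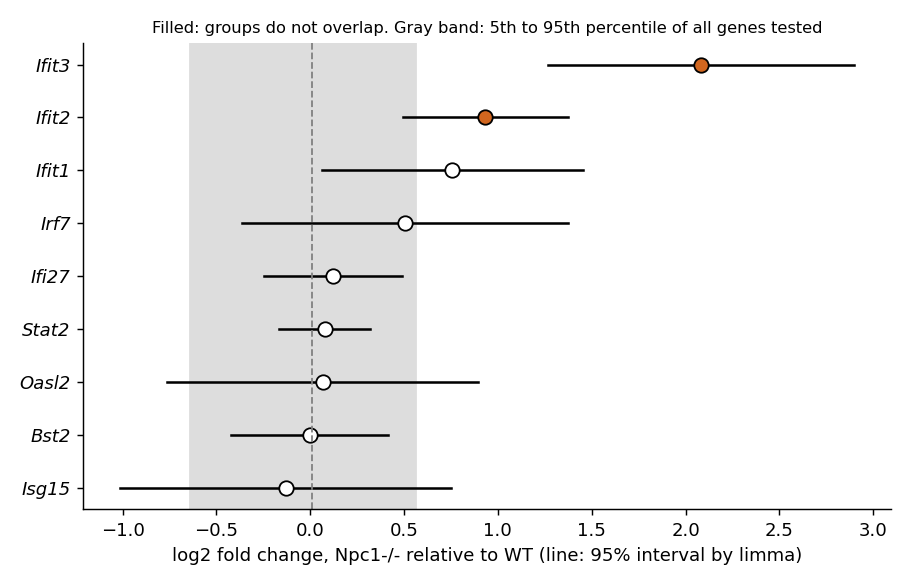
Log2 fold change of each of the 9 genes (Npc1-/- relative to WT) with its 95% interval from limma. Filled points mark genes whose groups do not overlap, the dashed line the median of all genes tested (0.01), and the gray band their 5th to 95th percentile (-0.64 to 0.56). The points of Ifit3, Ifit2 and Ifit1 lie to the right of the band, and the other 6 lie inside it.

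Ordered by mean level per length over the 6 libraries, the genes were Ifi27, Bst2, Stat2, Isg15, Ifit3, Irf7, Oasl2, Ifit2 and Ifit1. Of neighbours in that order, only Bst2 and Stat2 had ranges of scaled TPM that did not overlap. Ifi27 was above Bst2, and Ifit2 above Ifit1, in 6 of 6 libraries even so, while Isg15 was above Ifit3 in 3 of 6, which were the WT libraries. The place of Ifit3 differed by genotype, the 7th by mean level in WT and the 3rd in Npc1-/-, so its place in the pooled order describes neither.

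The mutant mice differed among themselves. In scaled TPM, Npc1-/- replicate 1 was the lowest of the 3 mutants in 9 of 9 genes, beside 37.1% of all genes tested. Replicate 2 was the highest in 6 genes and replicate 3 in the other 3. Among WT mice replicate 3 was the lowest in 6 of the 9 genes, beside 34.8% of all genes. These counts depend on the scaling. With TPM as deposited, Npc1-/- replicate 1 was the lowest in 5 of 9 genes (Ifit1, Ifit3, Isg15, Irf7 and Oasl2) and the highest in Stat2, and WT replicate 3 was the lowest in 9 of 9. Ifit2 and Ifit3 lay apart between genotypes with either scaling, and the other 7 overlapped. Without Npc1-/- replicate 1 the median of their log2 fold changes was 0.47 in place of 0.12, Ifit3 was called (log2 fold change 2.51, limma adjusted p 0.00669), and Isg15 stood at 0.31. Without Npc1-/- replicate 3, the library that differed in Xist, Ifit3 was at 1.88 and Ifit2 at 0.75, and none of the 9 was called.

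Each gene was also set against Isg15 in the same library. This ratio of TPM does not depend on the scaling between libraries, and it was chosen after the values were seen. Ifit3 was at 0.243, 0.307 and 0.370 of Isg15 in WT and at 1.69, 1.47 and 1.77 in Npc1-/-. The mutants now lay close together and well above the WT mice. Ifit1 was at 0.135, 0.147 and 0.147 of Isg15 in WT and at 0.340, 0.263 and 0.342 in Npc1-/-. Ifit2 was at 0.232, 0.250 and 0.392 in WT and at 0.998, 0.419 and 0.695 in Npc1-/-. Irf7 was at 0.532, 0.460 and 0.502 in WT and at 0.800, 0.798 and 0.818 in Npc1-/-.

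These 4 of the 8 genes had every Npc1-/- ratio above every WT ratio, beside 1.39% of the 15244 other genes tested (2.24% lay apart in either direction), each with an exact permutation p of 0.1. Nothing is read from that share, since Isg15 was chosen with its values known, had the lowest log2 fold change of the 9 genes and ranged from 3.69 to 11.1 scaled TPM among the mutants, so that a ratio to it seldom separates the groups. For Stat2, Bst2, Oasl2 and Ifi27 the ratios overlapped (exact permutation p of 0.8, 1.0, 0.2 and 0.6). With each of the 9 genes as the denominator in turn, the ratios of Ifit3 to all 8 others had every mutant above every WT mouse. Those of Ifit1 did so against Isg15, Irf7, Bst2, Oasl2 and Ifi27, those of Ifit2 against Isg15, Stat2, Bst2 and Ifi27, and those of Irf7 against Isg15 and Oasl2. With every gene tested as the denominator, the ratios of Ifit3 did so for 95.2% and those of Ifit2 for 84.7%. For Ifit1 the share was 26.5% and for Irf7 7.64%. The count for Ifit3 is thus near what most genes give, and that for Ifit2 is below its share. Against Ifit1, Ifit3 was at 1.80, 2.08 and 2.51 in WT and at 4.99, 5.57 and 5.18 in Npc1-/-. These ratios are a description, since they were chosen after the values were seen.

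**Figure D3:**
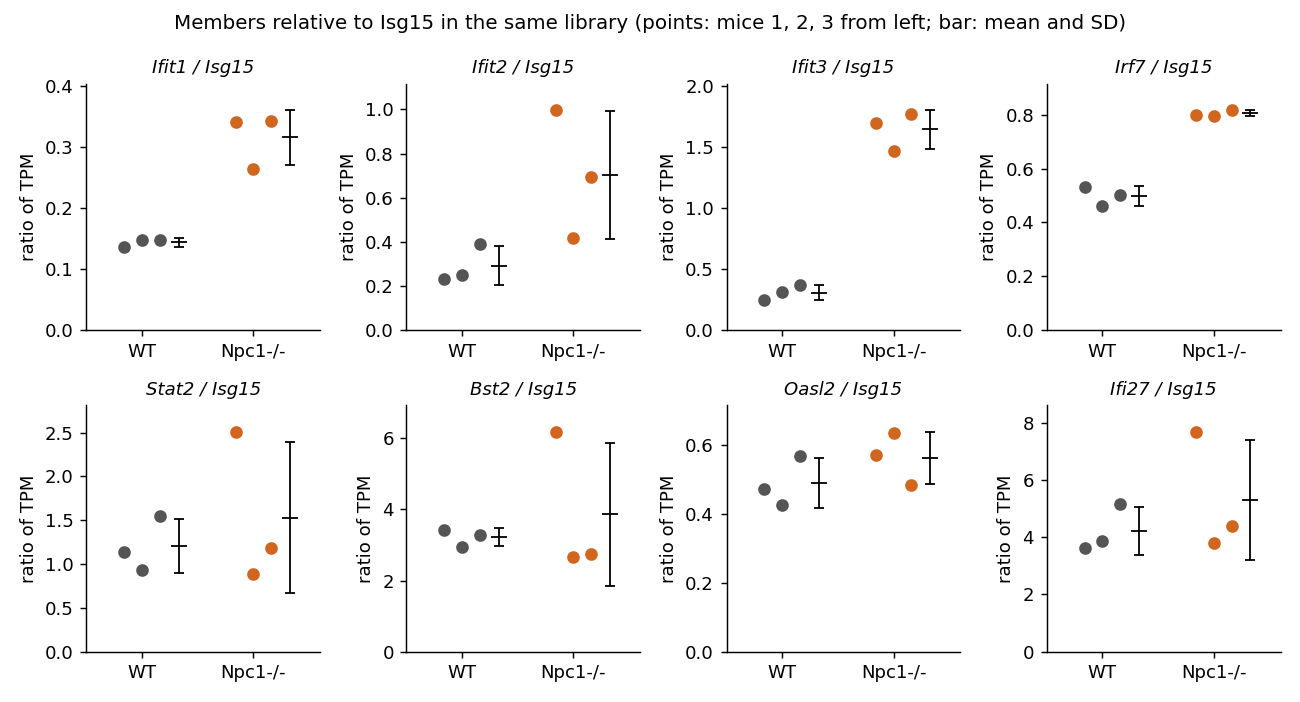
Ratio of TPM of 8 genes to Isg15 within each library (linear axes from 0), with mice 1, 2 and 3 from left to right and the mean and SD beside them. In the upper row (Ifit1, Ifit2, Ifit3 and Irf7) all Npc1-/- points lie above all WT points, and in the lower row (Stat2, Bst2, Oasl2 and Ifi27) the groups overlap.

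Turning to the rest of the pathway, no interferon ligand could be tested. Of 20 type I and III ligand genes, 18 were listed at 0 in every library, Ifnb1 among them, and Ifnk and Ifnz were at no more than 0.058 scaled TPM. Of the 9 receptor and JAK-STAT genes tested, Irf9 among them, 0 were called. With an unadjusted limma p below 0.05, 2 were lower in Npc1-/-, beside 22.2% of all genes in either direction (10.6% higher). Every mutant was below every WT mouse in 4, beside 14.2% of all genes. The median log2 fold change of the 9 was -0.13. The receptor subunit Ifnar2 was at 37.4, 38.8 and 34.5 scaled TPM in WT and at 29.6, 33.7 and 28.0 in Npc1-/-, a log2 fold change of -0.28 (limma adjusted p 0.164). Its partner Ifnar1 had a log2 fold change of -0.29 and the kinase Jak1 of -0.21, neither called.

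The cGAS-STING pathway senses DNA in the cytosol and leads to interferon. Of its 10 genes tested, 0 were called, and the median log2 fold change was -0.03. In Npc1-/- 2 lay apart with higher and 2 with lower levels, beside 13.3% and 14.2% of all genes tested. Among its most abundant members, Surf4, which returns STING to the endoplasmic reticulum, had a log2 fold change of -0.18, the transcription factor Irf3 of 0.09, and Stim1, which retains STING, of -0.24. Sting1 itself, named after its values were seen, was at 3.24, 1.73 and 3.58 scaled TPM in WT and at 0.79, 1.3 and 1.38 in Npc1-/-. All mutants were below all WT mice, with a log2 fold change of -0.99 (SE 0.27, limma adjusted p 0.0951).

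Of 12 RNA and Toll-like sensor genes tested, 0 were called, with a median log2 fold change of -0.17. In Npc1-/- 4 lay apart with lower levels, beside 14.2% of all genes tested. Adar, the RNA editing enzyme, and Mavs, the adaptor of RNA sensors, were at -0.18 and -0.17. Unc93b1, which carries Toll-like receptors to endosomes, was at 0.03. Of the 7 other interferon regulatory factors tested, 0 were called and 3 lay apart, all lower, beside 14.2% of all genes. Irf3 and Irf9 are among the 7 and are also counted in the lists above. The median of the 7 was -0.20, where Irf2 was at -0.20 and Irf9 at -0.08.

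Of the 6 brakes on interferon signalling tested, 0 were called, and Usp18 had the largest difference. Usp18, which takes ISG15 off proteins and blocks the receptor, was at 1.47, 1.41 and 1.65 scaled TPM in WT and at 2.03, 4.49 and 3.83 in Npc1-/-. All mutants were above all WT mice, and replicate 1 was again the lowest of them, with a log2 fold change of 0.92 (SE 0.25, limma adjusted p 0.0963). Its TPM ratio to Isg15 was 0.165, 0.15 and 0.274 in WT and 0.552, 0.404 and 0.424 in Npc1-/-. It was named after its values were seen. The most abundant brakes, Pias4, Ptpn2 and Pias1, had log2 fold changes of 0.18, -0.08 and -0.24.

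Of 55 other type I interferon targets listed, 37 could be tested, and 0 were called. With an unadjusted limma p below 0.05, 2 were higher and 7 were lower in Npc1-/-, beside 22.2% of all genes in either direction (10.6% higher). Of the genes tested, every mutant was above every WT mouse in 2, which were Ifit3b and Cmpk2, a mitochondrial nucleotide kinase (log2 fold change 0.57, limma adjusted p 0.117, named after its values were seen). Every mutant was below in 10, and the median log2 fold change of the 37 was -0.25. Over all genes tested the shares were 13.3% above and 14.2% below. Of the genes too low to test, Mx1, a GTPase gene that blocks viruses, was at 0.324, 0.0271 and 0.106 scaled TPM in WT and at 0.354, 1.15 and 0.440 in Npc1-/-, and Oas2, a 2-5 oligoadenylate synthetase gene, was at most 0.145 in WT and at least 0.151 in Npc1-/-. In scaled TPM every mutant was above every WT mouse in both, at low levels. With TPM as deposited the groups of Mx1 overlapped. Both were picked after their values were seen from the genes too low to test, most of which are not described here. Ifitm3 and Ifitm2, which block the entry of viruses from endosomes, were the most abundant and had log2 fold changes of -0.17 (limma adjusted p 0.589) and -0.44 (limma adjusted p 0.0800). Among the genes tested, Ifit3b had the largest log2 fold change and Cmpk2 the next.

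Of 14 targets of interferon gamma tested, 0 were called, with a median log2 fold change of -0.16. The 2 that lay apart, both lower, are near the share of 14.2% over all genes. The GTPase genes Gbp3, Gbp9 and Irgm1 were at -0.13, -0.63 and -0.08. Of 8 NF-kB and inflammatory targets tested, 0 were called and 3 lay apart, all lower, beside 14.2% of all genes, with a median of -0.12. Nfkbia, the inhibitor of NF-kB, was at -0.38, Nfkb1 at -0.44 and the adhesion molecule gene Icam1 at 0.35. An ISRE match was in the promoters of 24 of 44 other type I targets and of 10 of 12 interferon gamma targets that had a window.

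**Figure D4:**
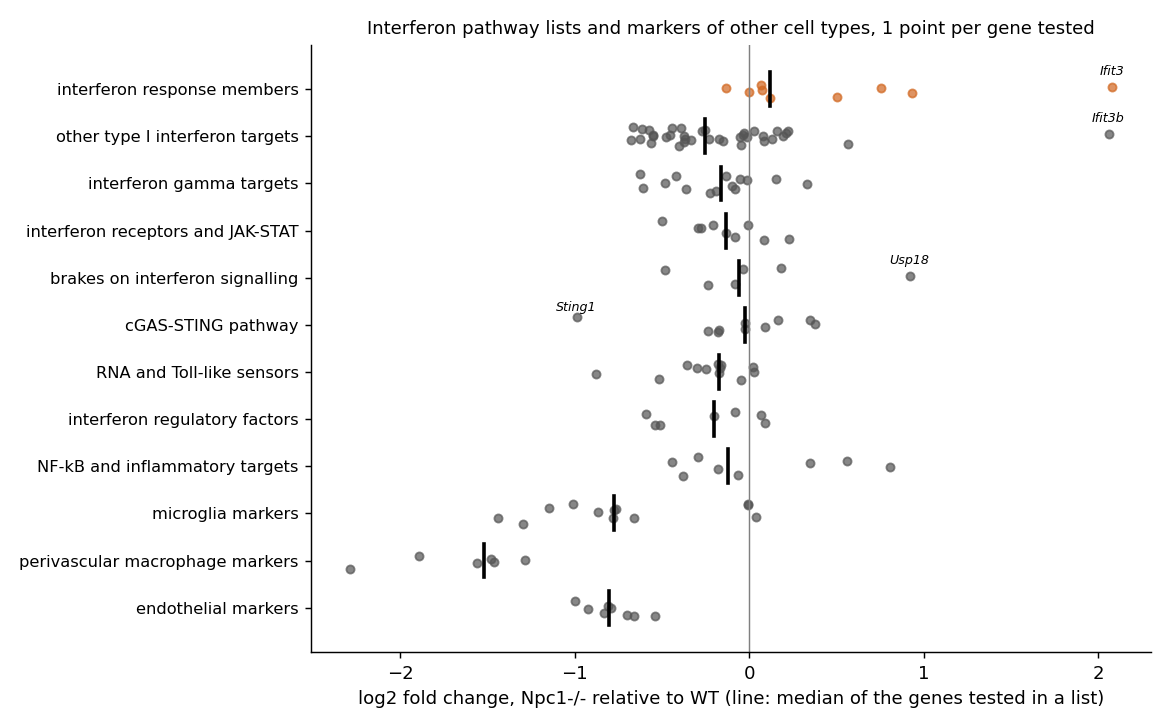
Log2 fold change (Npc1-/- relative to WT) of every tested gene of the 9 interferon response genes (top row, orange), of 8 lists of the interferon pathway and its relatives, and of markers of 3 other cell types, with a black line at each median. Ifit3, Ifit3b and Usp18 lie to the right of their lists, and the medians of the microglia, perivascular macrophage and endothelial markers lie at -0.78, -1.52 and -0.80.

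The O4 preparation also held RNA of other cells that answer interferon, and in bulk RNA fewer cells of a type and less RNA per cell cannot be told apart. The summed level of 12 microglia markers was 273 to 428 scaled TPM in WT and 138 to 256 in Npc1-/-. Of the 12, 7 had every mutant below every WT mouse, beside 14.2% of all genes tested. Tmem119, a marker of resident microglia, fell (log2 fold change -1.44, limma adjusted p 0.0442). The sum of 6 perivascular macrophage markers was 18.8 to 31.9 in WT and 5.19 to 7.07 in Npc1-/-, and Mrc1, Cd163, F13a1 and Cbr2 fell, with log2 fold changes of -1.90, -2.29, -1.56 and -1.48 (limma adjusted p 0.0364, 0.0102, 0.0364 and 0.0272). These 5 calls were lost without WT replicate 3 or Npc1-/- replicate 2, and all but that of Cd163 also without some of WT replicates 1 and 2 and Npc1-/- replicate 1 (limma adjusted p up to 0.193), with log2 fold changes of -1.28 or lower throughout. The sum of 8 endothelial markers was 601 to 871 in WT and 406 to 481 in Npc1-/-. Of these, 0 of 8 were called and 8 of 8 lay apart with lower levels, beside 14.2% of all genes. These marker sums were lower in the mutants. Among the interferon response genes, Isg15 and Bst2 also had lower means there, and the others had higher means. Any link between the marker sums and these genes was not tested.

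Within the mutants, the microglia sum was 138, 195 and 256 in replicates 1, 2 and 3, the endothelial sum was 406, 481 and 464, and the sum of Ifit3 and Ifit3b was 9.28, 24.6 and 24.5. Replicate 1 was the lowest in these sums of scaled TPM. With TPM as deposited it was the lowest in the microglia sum (152, 167 and 186) and in that of Ifit3 and Ifit3b (10.2, 21.1 and 17.8), and the highest in the endothelial sum (447, 411 and 337), while all of these sums kept the genotypes apart in the same direction. The sum of 7 astrocyte markers was 578 to 624 in WT and 408 to 795 in Npc1-/-. Their median log2 fold change was -0.37. In Npc1-/- 4 of the 7 lay apart with lower and 1 with higher levels, beside 14.2% and 13.3% of all genes tested. Gfap, an intermediate filament gene, had the highest log2 fold change of the 7, at 1.01 (limma adjusted p 0.108), and the lowest was -0.81. The sum of 8 neuron markers was 90.0 to 122 in WT and 140 to 182 in Npc1-/-, and the neurofilament genes Nefl and Nefm rose by a log2 fold change of 1.22 and 1.11 (limma adjusted p 0.0185 and 0.0134), calls that were lost without any 1 library other than Npc1-/- replicate 3 (limma adjusted p up to 0.0821). The 7 T and B lymphocyte markers summed to 1.07 to 1.23 in WT and 0.674 to 0.842 in Npc1-/-, none could be tested, and Cd3d and Cd8a were at 0 in every library. The 12 oligodendrocyte lineage markers had 0 called and a median log2 fold change of 0.16. The part of these cells in the levels of the 9 genes was not tested.

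**Figure D5:**
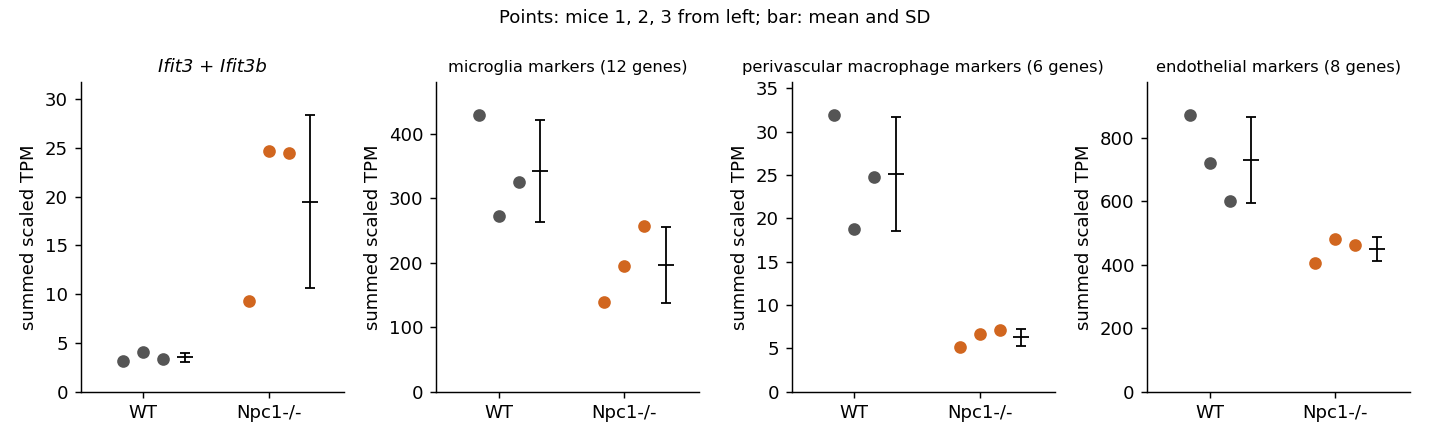
Summed scaled TPM (linear axes from 0) of Ifit3 and Ifit3b, 12 microglia markers, 6 perivascular macrophage markers and 8 endothelial markers in each library, with mice 1, 2 and 3 from left to right and the mean and SD beside them. The Ifit3 sum is above WT in all 3 Npc1-/- mice, and the 3 marker sums are below WT in all 3.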

How the data were processed

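Poly(A) RNA of O4-purified brain cells from 3 WT and 3 Npc1-/- mice was sequenced in 151-base pairs. For these data the methods name bbduk, STAR, GRCm38, featureCounts and DESeq2, whereas the submitters' processing notes list cutadapt 2.3, FastQC 0.11.8, STAR 2.7.8a, RSEM 1.3.3 and MultiQC 1.7. Which of them made the values is not given in the sources used here. The authors deposited TPM and FPKM per gene (55492 genes), with 2 decimals, and no counts. TPM was used, and FPKM only as an alternative and for the depth. Low FPKM values of genes with 1 transcript fell within 0.15 of whole fragments for 78.5 to 82.8% of values, where chance gives 30%, so no count test was run.

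TPM was divided by median-of-ratios size factors (0.727 to 1.30, over 18690 genes above 0 in every library), and log2 of the value plus 0.5 was fitted with limma 3.58.1 in R 4.3.3 (trend, genotype as the only factor) for the 15245 genes that averaged at least 0.5 TPM. Because of the 0.5, the fold change of low genes is understated. In a simulation of all 15245 genes, the fit called 85% of the 200 to which a log2 change of 1.5 had been given. Its noise was drawn for each gene on its own. A change of 1.5 also exceeds the estimates of all interferon response genes but Ifit3. That share thus does not tell how likely a call was for these genes. Gene positions are those of GENCODE M21. Python 3.11.15 was used for the rest.

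The labels give the genotype and replicate numbers 1 to 3. Samples with the same number deviated together with correlations of 0.414, 0.0602 and 0.326. The labels do not say that they are pairs, so they were not treated as such. The 9 genes and all lists were chosen with earlier results of these data known. Named are the 9 genes, Npc1, every called gene and the 3 most abundant of each list (of those detected), relatives or neighbours that share reads, and the 5 genes most like the 9 in pattern, and any other is said to be chosen after its values were seen. Alternatives were FPKM, TPM as deposited, quantile normalization, other pseudocounts and filters, limma without trend or with robust estimation, no X, Y or mitochondrial genes, a replicate block and each library left out.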

Additional observations from a re-analysis of the deposited data

How the results depend on the processing

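The number of genes called was 124. It was 924 with TPM as deposited, 240 after quantile normalization, 21 without a filter, 447 with a mean TPM of at least 5, 42 without trend and 2011 with a replicate block. Leaving out 1 library gave 5 to 477. Of the 9 genes 0 were called in the reported fit. Ifit3 was the 1 called with TPM as deposited (limma adjusted p 0.0110), after quantile normalization (0.0451), with a pseudocount of 0.1 (0.0498), with a mean TPM of at least 5 (0.0395, 6 of the 9 genes tested) and without X, Y and mitochondrial genes (0.0494). Leaving out 1 library gave 0 to 1 called, the 1 being Ifit3 without Npc1-/- replicate 1. Ifit3 had a log2 fold change of 1.74 to 2.51 over all alternatives (limma adjusted p 0.00669 to 0.198). The count of 0 to 2 thus rests on values near the threshold.

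With the replicate block 2 of the 9 genes were called, Ifit3 (limma adjusted p 0.0170) and Ifit2 (0.0229). The correlations above do not pair the libraries, although all 6 correlated best with their own number, a hint from the data and not the design.

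With TPM as deposited the median log2 fold change of all genes was -0.33 and that of the 9 genes -0.25, or 0.08 relative to it. Ifi27, Oasl2 and Stat2 then stood at -0.25, -0.27 and -0.28, or at 0.08, 0.05 and 0.05 relative to all genes. Without 1 library the median of the 9 genes was 0.05 to 0.47. Genes near 0 changed sign when 1 library was left out. Bst2, from -0.19 to 0.12, was at 0.12, 0.05, 0.08 and 0.02 without WT replicate 1, WT replicate 2, Npc1-/- replicate 1 and Npc1-/- replicate 3, Isg15, from -0.43 to 0.31, was at 0.31 without Npc1-/- replicate 1, and Oasl2, from -0.30 to 0.47, was at -0.01 without WT replicate 3 and -0.30 without Npc1-/- replicate 2. The cause was not tested. Ifit1, Ifit2, Ifit3 and Irf7 kept their direction under every alternative in which they were tested. The precision of the values is limited by 3 mice per genotype, and that of low genes also by the 2 decimals of TPM.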

Other observations

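Over the 6 libraries, the 5 tested genes whose log2 levels went most closely with the mean of the 9 interferon response genes were Csf2ra, Wdr27, Rps12-ps3, Gm43951 and Gm21178. Their Pearson correlations were 0.996, 0.989, 0.985, 0.983 and 0.982. This is a description over 6 libraries that share their depth and scaling, and the genes were picked from all genes tested for the highest values. Csf2ra, a subunit of the receptor for the growth factor GM-CSF, was at 6.73, 6.46 and 5.25 scaled TPM in WT and at 5.69, 11.2 and 10.8 in Npc1-/-. In all 5 genes the groups overlapped.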
